A study of Mus musculus with 9 samples.

Results

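Translation initiation and elongation factor genes were followed across 3 genotypes of mouse oocyte: Dicer knockout, Dgcr8 knockout and wild-type. A gene belonged to the set when its symbol started with Eif or Eef and a digit and a probe set of the array named that gene alone. The genes of the Eif2ak kinases and Eif4ebp1 were left out, and where a gene had several probe sets, the one with the highest mean signal on all 9 arrays was read. This gave 56 genes of the 19938 with a named probe set, read out by 66 probe sets, 8 of the genes having more than 1. Of the 56, 54 passed a floor of signal (log2 of at least 4 in at least 3 arrays), as did 17324 genes in all. The 2 below it were Eif2s3y, the Y-linked copy of the gene for the eIF2 gamma subunit, at 2.32 to 2.40 in the 9 arrays, and Eif4a3l1, a gene named for its likeness to Eif4a3, at 3.42 to 4.06. Eif1, Eif2s1, Eif4g1 and Eef1g, which belong to the core machinery, had no probe set that named them alone and were not analysed here.

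The oocytes were ovulated eggs held at metaphase II, and each genotype was measured on 3 arrays given as biological replicates, with all 3 genotypes labelled C57BL/6. Follicles had been stimulated with 7.5 IU of PMSG and ovulation set off with 7.5 IU of hCG, and oviducts were taken 14 to 16 h later. Cumulus cells were removed with hyaluronidase (0.3 mg/ml) and washing. The age of the females, the promoter or Cre behind each knockout, and the number of oocytes and females behind each array are in none of the labels, so p-values measure the spread between these arrays, which may be partly technical. Dgcr8 protein is a partner of Drosha in the first cut of canonical microRNA precursors. Dicer makes the later cut, and in mouse oocytes also produces endogenous siRNAs from longer double-stranded RNA.

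Translation starts when a small ribosomal subunit carrying eIF1, eIF1A, eIF3, eIF5 and eIF2 with the initiator tRNA is brought to a capped mRNA by the eIF4 factors and scans to the start codon. Elongation then needs eEF1A to deliver each aminoacyl-tRNA, the eEF1B exchange factors to recharge eEF1A with GTP, and eEF2 to move the ribosome along. The fully grown oocyte hardly transcribes, so that meiosis and the first events after fertilization rely on stored mRNA whose translation is switched on and off by factors that bind its cap and its poly(A) tail.

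Signals are log2 values, and they are comparable for a gene between arrays but not between genes. The targeted genes were read first. Dgcr8 lay at 8.37, 8.28 and 8.72 in Dicer knockout arrays, at 5.47, 5.98 and 5.70 in Dgcr8 knockout arrays, and at 8.85, 9.05 and 8.97 in wild-type arrays. Dicer1 lay at 10.81, 10.77 and 10.57 in Dicer knockout arrays, at 11.65, 11.63 and 11.75 in Dgcr8 knockout arrays, and at 11.66, 11.67 and 11.67 in wild-type arrays. Each targeted gene was thus lowest in all 3 arrays of its own knockout. Whether the probe sets read the deleted stretch of these genes was not tested. All 15 oocyte markers passed the floor, and their array means were 11.3 to 11.5 in Dicer knockout, 11.3 to 11.4 in Dgcr8 knockout and 11.3 to 11.4 in wild-type oocytes. Among them Zp2, a zona pellucida protein, rose by 0.40 and Kit, the receptor of Kit ligand, fell by 0.36 in Dicer knockout against wild-type oocytes. Of 16 cumulus and granulosa cell markers tested, 1 rose in Dicer knockout against wild-type oocytes (Gata4, a transcription factor) and none fell. Changes in this list ran from -0.41 for Nr5a2 to 0.72 for Ptgs2. The array means of the list were 5.58 to 5.63 in Dicer knockout, 5.59 to 5.64 in Dgcr8 knockout and 5.59 to 5.66 in wild-type arrays. Of 12 oviduct markers tested, 1 fell (Myh11, a smooth muscle myosin), with array means of 5.52 to 5.61 in Dicer knockout, 5.56 to 5.77 in Dgcr8 knockout and 5.65 to 5.69 in wild-type arrays. The 10 immune and blood cell markers tested had array means of 5.53 to 6.07 in Dicer knockout, 5.34 to 5.44 in Dgcr8 knockout and 5.29 to 5.42 in wild-type arrays. Of these, 2 rose in Dicer knockout against wild-type oocytes, C1qb (a complement subunit, by 1.62) and Cd68 (a macrophage glycoprotein, by 0.96). Ptprc, the pan-leukocyte antigen CD45, averaged 4.81 in Dicer knockout, 4.86 in Dgcr8 knockout and 4.85 in wild-type oocytes, and Adgre1, a macrophage marker, did not pass the floor. Beside these marker counts, 11.3% of all genes were called in Dicer knockout against wild-type, by the test given below. The part of these markers in the results below was not tested. In such bulk samples, fewer cells of a type and less RNA per cell cannot be told apart.

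Dicer knockout was compared with wild-type to ask which translation factor RNAs differ in oocytes that lack Dicer. Few did. Eif3k and Eef1b2 rose and Eef2k and Eif1ad fell, which makes 4 of 54 called genes (7.41%), and the other 50 lay between -0.24 and 0.26 on the log2 scale. Over all genes tested, 11.3% were called in this comparison. The called members that rose were 3.70% of the set, where 4.87% of all genes rose, and those that fell were 3.70%, where 6.47% of all genes fell. The share of called members was thus no higher than that of all genes. A gene was called at a Benjamini-Hochberg adjusted p under 0.05 in limma, adjusted over all 17324 genes, and an adjusted p below comes from that fit unless another setting is named beside it.

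The median log2 change of the 54 genes was 0.01, beside -0.03 for all genes tested, and the median size of the change was 0.096, beside 0.107. The 95% interval of the change lay wholly within 0.5 of 0 for 48 of 54 genes (88.9%), beside 73.7% of all genes. The median signal was 9.91 over the members and 6.41 over all genes tested. The part of signal level in these shares was not tested. Measured on 3 arrays against 3, 12 of the 54 genes (22.2%) did not overlap between the genotypes, beside 26.2% of all genes. The pooled standard deviation within groups had a median of 0.119 over the members and 0.124 over all genes. With a stricter floor of 6, which kept 49 of the members and 10181 genes in all, 6 members (12.2%) and 21.6% of all genes were called; Eif1b and Eif4a2 were added. Quantile normalization moved the count more, to 9 called genes, of which 2 rose and 7 fell. It added Eif4a2, Eif4b, Eif4e3, Eif5 and Eif5b, each lower in Dicer knockout. Centring each array on its median gave 2 that rose and 1 that fell. The share of all genes called under these 2 settings is not given here. With quantile normalization the median change was -0.043 over the members and -0.041 over all genes. With median centring it was 0.01 over the members and -0.03 over all genes.

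**Figure D1:**
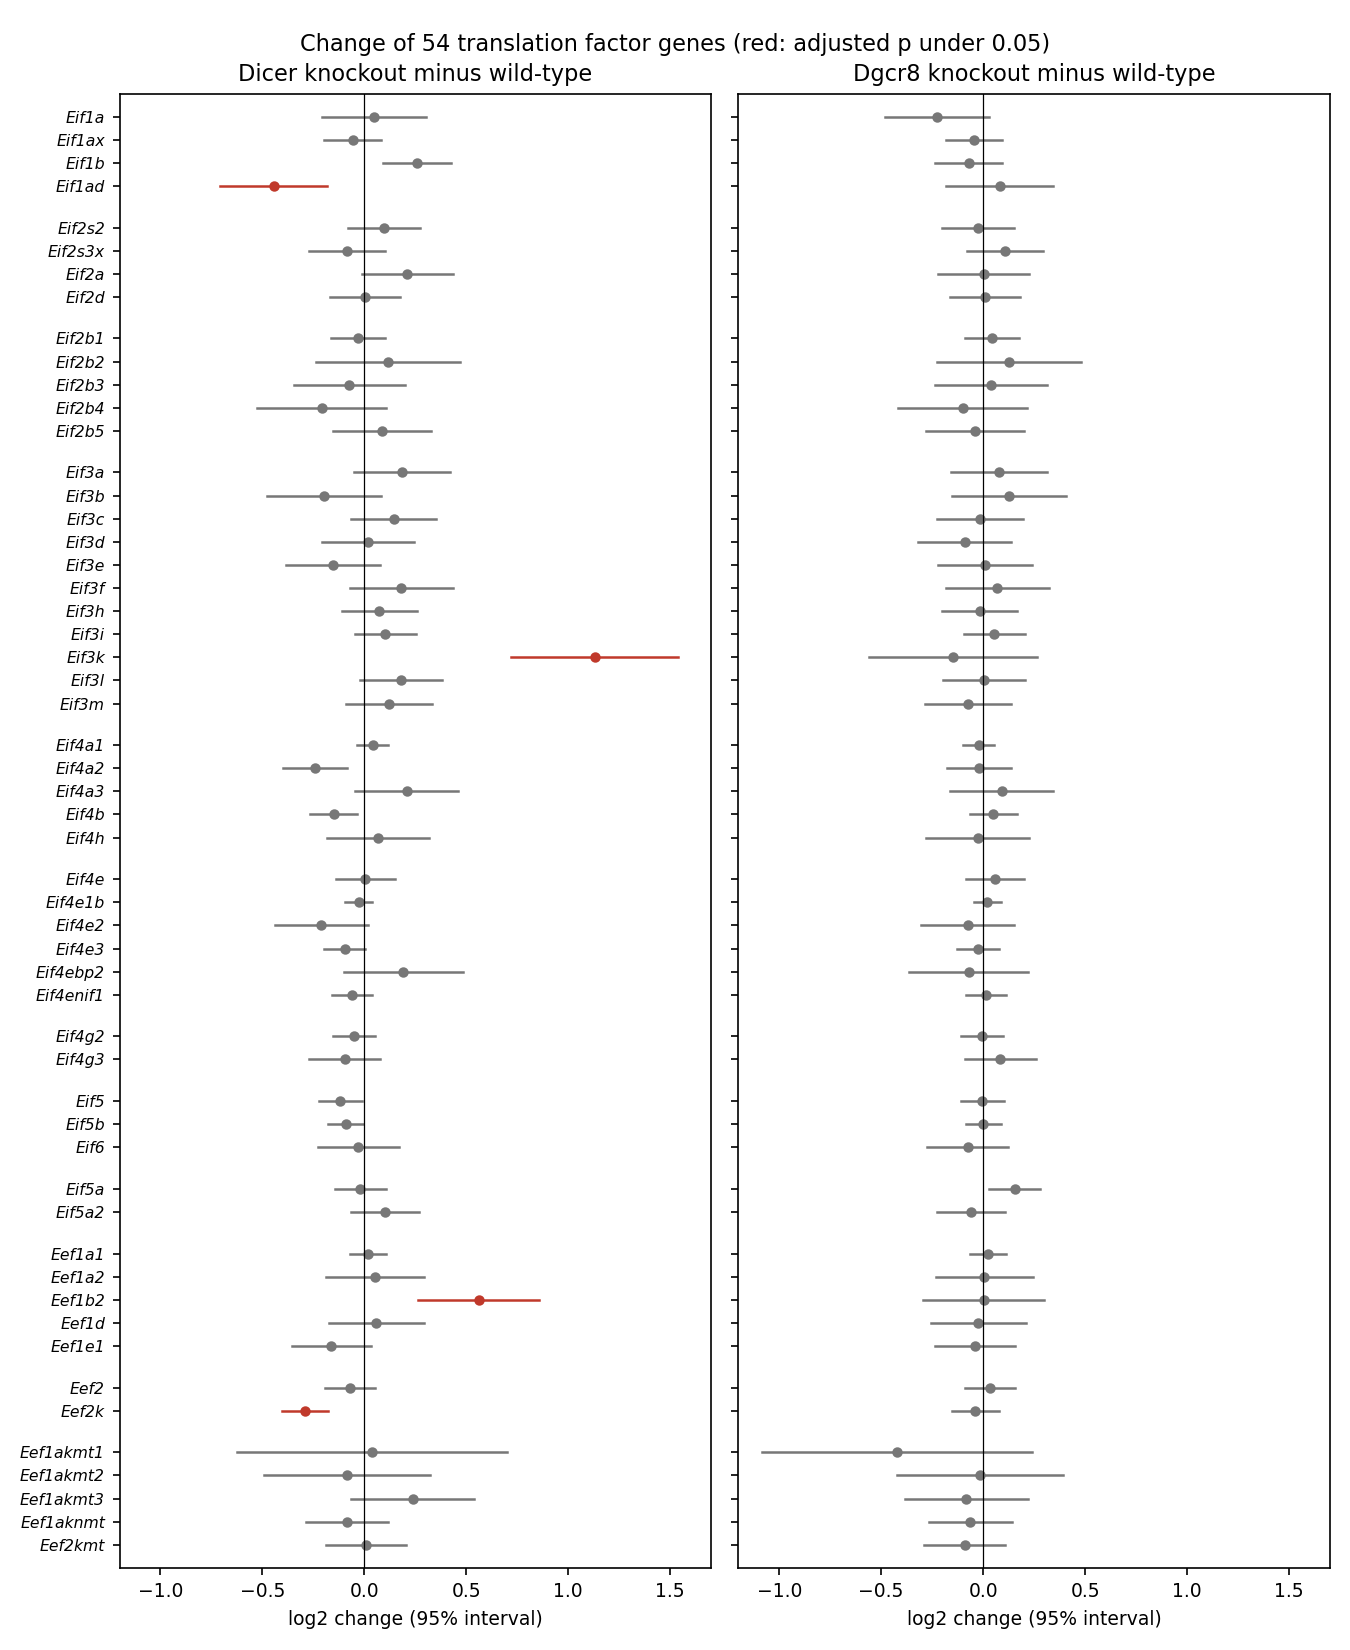
Log2 change of each of the 54 tested translation factor genes (rows, ordered by role) with its 95% interval, for Dicer knockout against wild-type (left) and Dgcr8 knockout against wild-type (right). Points in red passed an adjusted p of 0.05: 4 genes on the left, with Eif3k farthest to the right at 1.13, and 0 on the right.

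The factors that sit on the small subunit at the start codon were measured through 4 genes. Eif1b, a close relative of eIF1, which guards start codon choice, had 11.19, 11.10 and 10.96 in Dicer knockout arrays, 10.69, 10.79 and 10.78 in Dgcr8 knockout arrays, and 10.91, 10.88 and 10.69 in wild-type arrays. All 3 Dicer knockout arrays lay above all 6 others. The difference from wild-type, 0.26 ± 0.07 (SE), did not pass (adjusted p = 0.0522), although it did with a floor of 6 (adjusted p = 0.0316) and without Dicer knockout replicate 3 (adjusted p = 0.0233). Eif1ax, the X-linked gene for eIF1A, changed by -0.06 (95% interval -0.20 to 0.08). Eif1a, its autosomal counterpart, had 5.18, 5.18 and 5.52 in Dicer knockout arrays, 5.13, 5.07 and 4.87 in Dgcr8 knockout arrays and 5.37, 5.15 and 5.21 in wild-type arrays. Its Dicer knockout and wild-type arrays overlapped (0.05, interval -0.21 to 0.30).

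Eif1ad fell in Dicer knockout oocytes. Its protein carries an eIF1A-like domain and is not itself one of the canonical initiation factors. Signals were 7.92, 7.78 and 7.72 in Dicer knockout arrays, 8.24, 8.18 and 8.57 in Dgcr8 knockout arrays, and 8.17, 8.37 and 8.21 in wild-type arrays. The Dicer knockout arrays were the 3 lowest of the 9, with a mean of 7.81 ± 0.11 against 8.25 ± 0.11 in wild-type oocytes (SD, n = 3 arrays each; limma adjusted p = 0.0371). The log2 change was -0.44 ± 0.12 (SE), a fold of 0.735. The call was close to the threshold and was kept in 10 of 19 alternatives. Among others, it was lost without Dicer knockout replicate 2 (adjusted p = 0.0801) or 3 (0.0994). It was also lost without wild-type replicate 1 (0.0695), 2 (0.134) or 3 (0.0886), with median centring (0.0826) and with all probe sets (0.0539).

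eIF2 carries the initiator tRNA, and eIF2B recharges it with GTP, the step that stress kinases block. None of the 9 tested genes of eIF2, eIF2B and other initiator tRNA factors was called. Eif2s2, the beta subunit, had 11.35, 11.25 and 11.10 in Dicer knockout arrays, 10.96, 11.12 and 11.26 in Dgcr8 knockout arrays and 11.14, 11.13 and 11.14 in wild-type arrays, and the 3 genotypes overlapped. Its change in Dicer knockout was 0.10 (interval -0.08 to 0.27). Eif2s3x, the X-linked gamma subunit, had 11.14, 10.95 and 11.10 in Dicer knockout arrays, 11.31, 11.06 and 11.41 in Dgcr8 knockout arrays, and 11.15 in each wild-type array. The Dicer knockout arrays lay just below the wild-type ones, by -0.09 (interval -0.27 to 0.10), a difference that did not pass (adjusted p = 0.632). Eif2a, a separate factor that can bring initiator tRNA to some mRNAs and not a subunit of eIF2, had 9.03, 8.65 and 8.85 in Dicer knockout arrays and 8.63, 8.69 and 8.58 in wild-type arrays (0.21, interval -0.01 to 0.44, adjusted p = 0.242). Eif2d, another factor that binds initiator tRNA, changed by 0.00. The 5 eIF2B genes ranged from -0.21 for Eif2b4 (interval -0.52 to 0.11) to 0.12 for Eif2b2 (interval -0.23 to 0.47), with 0.09 for Eif2b5, the catalytic epsilon subunit.

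The largest change of the whole set was in eIF3, the scaffold of many subunits that holds the initiation factors on the small ribosomal subunit. Eif3k, a small subunit outside the core of the complex, had 9.91, 9.75 and 9.50 in Dicer knockout arrays, 8.19, 8.41 and 8.72 in Dgcr8 knockout arrays, and 8.80, 8.77 and 8.20 in wild-type arrays. The 3 Dicer knockout arrays were the highest of the 9. The mean was 9.72 ± 0.21 in Dicer knockout and 8.59 ± 0.34 in wild-type oocytes (SD, n = 3 arrays each), a log2 change of 1.13 ± 0.18 (SE; interval 0.72 to 1.54), or 2.19-fold, with a limma adjusted p of 0.00334. It was called under all 19 alternative settings, with adjusted p between 0.00184 and 0.0183.

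The other 10 eIF3 subunit genes tested did not pass. Their changes ran from -0.20 for Eif3b to 0.19 for Eif3a, the lowest adjusted p was 0.265, and all 10 intervals lay within 0.5 of 0. Eif3a, the largest subunit, had 10.13, 9.98 and 9.77 in Dicer knockout arrays, 9.82, 9.75 and 9.99 in Dgcr8 knockout arrays, and 9.89, 9.81 and 9.62 in wild-type arrays. Eif3b, another core subunit, had 8.66, 8.23 and 8.61 in Dicer knockout arrays, 8.72, 8.86 and 8.90 in Dgcr8 knockout arrays, and 8.53, 8.79 and 8.79 in wild-type arrays. Both overlapped between Dicer knockout and wild-type. The median change of the 10 was 0.11. Counted over all 11 eIF3 genes, the median deviation from the wild-type mean was 0.24, 0.05 and 0.07 in the Dicer knockout arrays, 0.02, -0.08 and 0.13 in the Dgcr8 knockout arrays, and 0.02, 0.05 and -0.08 in the wild-type arrays, so that 1 Dicer knockout array, replicate 1, stood above the others.

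**Figure D2:**
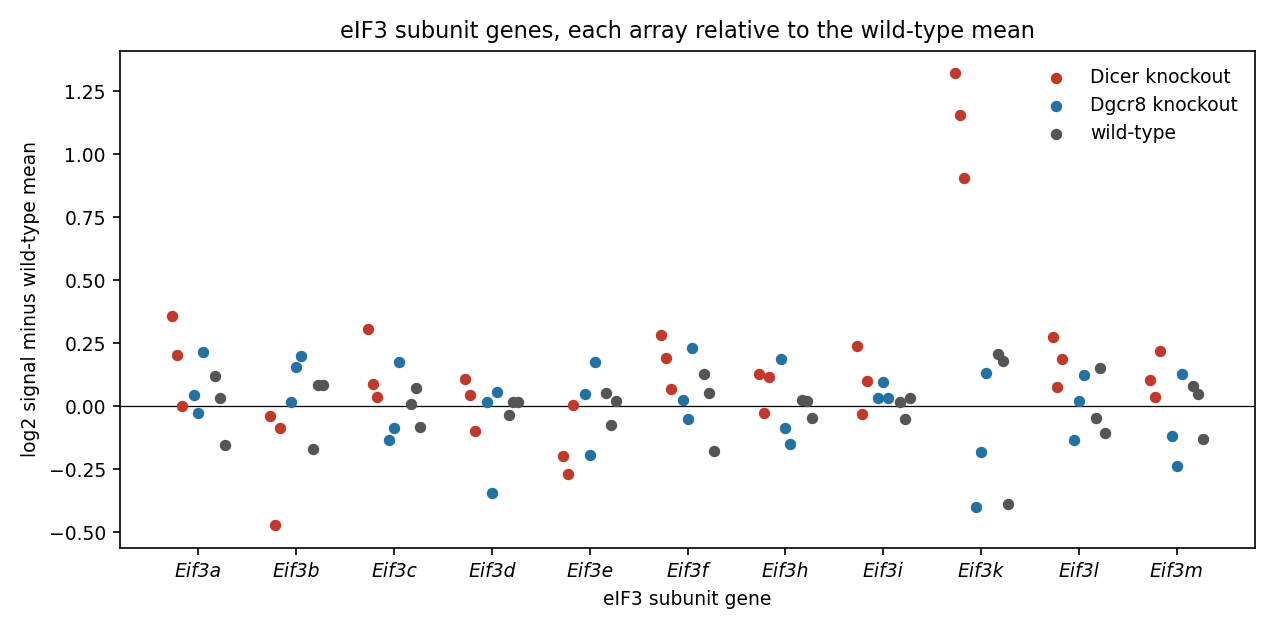
Signal of each of the 11 tested eIF3 subunit genes (horizontal axis) on each array, as log2 signal minus the mean of the 3 wild-type arrays (vertical axis), with Dicer knockout, Dgcr8 knockout and wild-type arrays in separate colours. Eif3k in Dicer knockout lies 1.13 above its wild-type mean on average, and the other 10 subunits change by -0.20 to 0.19.

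eIF4A is the helicase that unwinds the mRNA leader, and eIF4B and eIF4H speed it up. Eif4a1, the main helicase gene, had 11.66, 11.71 and 11.76 in Dicer knockout arrays, 11.64, 11.66 and 11.64 in Dgcr8 knockout arrays, and 11.63, 11.69 and 11.69 in wild-type arrays, the smallest spread of the set (0.033, pooled SD within groups). Its change in Dicer knockout was 0.04 (interval -0.03 to 0.12). Eif4a2, a close paralogue, had 10.97, 11.19 and 11.31 in Dicer knockout arrays, 11.39, 11.35 and 11.39 in Dgcr8 knockout arrays, and 11.41, 11.40 and 11.39 in wild-type arrays. All 3 Dicer knockout arrays were below the others, and the change of -0.24 (interval -0.40 to -0.09) fell short of the threshold (adjusted p = 0.0522). It passed without Dicer knockout replicate 3 (adjusted p = 0.00968), with a floor of 6 (0.0312), with quantile normalization (0.0235) and with array weights (0.0282). Eif4b had 10.66, 10.49 and 10.62 in Dicer knockout arrays and 10.72, 10.71 and 10.78 in wild-type arrays. They did not overlap, and the change was -0.15 (interval -0.27 to -0.03, adjusted p = 0.104). With quantile normalization Eif4b passed (adjusted p = 0.012). Eif4a3, which works in the exon junction complex rather than in initiation, changed by 0.21 (interval -0.04 to 0.46), and Eif4h by 0.07.

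The cap of the mRNA is bound by the eIF4E family, and in the growing and maturing oocyte stored messages are held back by proteins that bind eIF4E. None of these 6 genes was called. Eif4e1b, an oocyte-enriched relative of eIF4E, had 12.58, 12.57 and 12.51 in Dicer knockout arrays, 12.58, 12.59 and 12.64 in Dgcr8 knockout arrays, and 12.55, 12.61 and 12.59 in wild-type arrays. Eif4e, the cap-binding factor itself, had 11.18, 11.03 and 11.28 in Dicer knockout arrays, 11.13, 11.23 and 11.30 in Dgcr8 knockout arrays, and 11.14, 11.18 and 11.15 in wild-type arrays. For both genes the 3 genotypes overlapped, and the intervals of the Dicer knockout change were -0.10 to 0.04 for Eif4e1b and -0.14 to 0.15 for Eif4e. Eif4e3, another cap-binding relative, had 11.62, 11.62 and 11.58 in Dicer knockout arrays and 11.74, 11.67 and 11.69 in wild-type arrays, without overlap, and its change of -0.10 did not pass (adjusted p = 0.242). With quantile normalization Eif4e3 passed (adjusted p = 0.0173). Eif4e2, known as 4EHP, which occupies the cap without engaging eIF4G, changed by -0.21 (interval -0.44 to 0.02). Eif4enif1, the eIF4E transporter 4E-T, which packs eIF4E with silent mRNA, had 11.40, 11.29 and 11.30 in Dicer knockout arrays, 11.41, 11.38 and 11.43 in Dgcr8 knockout arrays, and 11.35, 11.37 and 11.46 in wild-type arrays. It changed by -0.06 (interval -0.16 to 0.04), and Eif4ebp2, which blocks eIF4E from joining eIF4G, by 0.19 (interval -0.10 to 0.48). Of the eIF4G scaffold family, Eif4g2, which lacks the eIF4E-binding region, changed by -0.05 (interval -0.15 to 0.05), and Eif4g3 by -0.10 (interval -0.27 to 0.08).

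The factors that end initiation were not called either in the fit given above. With quantile normalization, Eif5 (adjusted p = 0.0146) and Eif5b (0.0124) passed. Eif5, which makes eIF2 hydrolyse its GTP at the start codon, had 11.24, 11.07 and 11.11 in Dicer knockout arrays and 11.24, 11.24 and 11.31 in wild-type arrays. The highest Dicer knockout array touched the wild-type ones, and the change was -0.12 (interval -0.22 to -0.01, adjusted p = 0.16). Without Dicer knockout replicate 1, Eif5 passed (adjusted p = 0.0448). Eif5b, which joins the large subunit, had 11.17, 11.08 and 11.11 in Dicer knockout arrays and 11.19, 11.21 and 11.23 in wild-type arrays. They did not overlap, and the change was -0.09 (interval -0.18 to -0.01, adjusted p = 0.179). Eif6, which keeps free large subunits from joining, changed by -0.03. Eif5a, whose hypusine-bearing protein helps the ribosome past difficult peptide bonds, changed by -0.02 (interval -0.15 to 0.10), and its paralogue Eif5a2 by 0.10 (interval -0.06 to 0.27).

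In elongation, the exchange factor gene Eef1b2 rose in Dicer knockout oocytes. It encodes eEF1B alpha, which recharges eEF1A with GTP. It had 10.18, 9.98 and 10.35 in Dicer knockout arrays, 9.57, 9.48 and 9.77 in Dgcr8 knockout arrays, and 9.73, 9.76 and 9.33 in wild-type arrays. All 3 Dicer knockout arrays lay above all 6 others. The mean was 10.17 ± 0.19 in Dicer knockout and 9.61 ± 0.24 in wild-type oocytes (SD, n = 3 arrays each), a change of 0.56 ± 0.13 (SE), or 1.48-fold, with a limma adjusted p of 0.0224. The call was lost without Dicer knockout replicate 1 (adjusted p = 0.0703) or 3 (0.0727), without wild-type replicate 3 (0.0707), and in a fit of these 2 genotypes alone (0.0582). Wild-type replicate 3 was the lowest wild-type array for Eef1b2, Eif3k and Eif1b. Without it, Eef1b2 and Eif1ad lost their calls, and Eif3k and Eef2k kept theirs. Eif1ad also lost its call without either of the other wild-type arrays.

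The partners of eEF1B alpha did not pass. Eef1a1, the gene for the aminoacyl-tRNA carrier, had 12.26, 12.19 and 12.33 in Dicer knockout arrays, 12.27, 12.27 and 12.26 in Dgcr8 knockout arrays, and 12.20, 12.23 and 12.30 in wild-type arrays, with a change of 0.02 (interval -0.07 to 0.11). Eef1a2, its paralogue best known from muscle and nerve, changed by 0.05, and Eef1d, another exchange subunit, by 0.06 (interval -0.17 to 0.29). Eef1e1, a small protein of the aminoacyl-tRNA synthetase complex, changed by -0.16 (interval -0.36 to 0.03).

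Eef2k, the kinase that phosphorylates eEF2 and so slows elongation, fell in Dicer knockout oocytes. It had 10.19, 10.11 and 10.20 in Dicer knockout arrays, 10.49, 10.37 and 10.39 in Dgcr8 knockout arrays, and 10.46, 10.43 and 10.47 in wild-type arrays. The 3 Dicer knockout arrays were the lowest of the 9. The mean was 10.17 ± 0.05 in Dicer knockout and 10.45 ± 0.02 in wild-type oocytes (SD, n = 3 arrays each), a change of -0.29 ± 0.05 (SE; interval -0.40 to -0.18) or a fold of 0.818, with a limma adjusted p of 0.00505. A second Eef2k probe set, at 5.54 in Dicer knockout and 5.50 in wild-type oocytes on average, changed by 0.04, and with the mean of both probe sets the call was lost (adjusted p = 0.487). Eef2, the substrate, had 10.50, 10.45 and 10.57 in Dicer knockout arrays, 10.66, 10.56 and 10.60 in Dgcr8 knockout arrays, and 10.61, 10.49 and 10.63 in wild-type arrays. The genotypes overlapped (-0.07, interval -0.19 to 0.05).

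The 5 genes of enzymes that methylate eEF1A or eEF2 lay closer to the floor, at 4.41 to 6.93 over all arrays, and none was called. Eef1akmt1 had 5.60, 5.24 and 5.86 in Dicer knockout arrays, 4.96, 4.79 and 5.57 in Dgcr8 knockout arrays, and 6.22, 5.10 and 5.27 in wild-type arrays, with the largest spread of the set (0.457, pooled SD within groups). The arrays overlapped, and the interval of its Dicer knockout change ran from -0.63 to 0.70. Eef1akmt3 changed by 0.24 (interval -0.06 to 0.54) and Eef1akmt2 by -0.09 (interval -0.49 to 0.32). Eef1aknmt, whose product methylates the first residue of eEF1A, changed by -0.08, and Eef2kmt, whose product acts on eEF2, by 0.01.

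**Figure D3:**
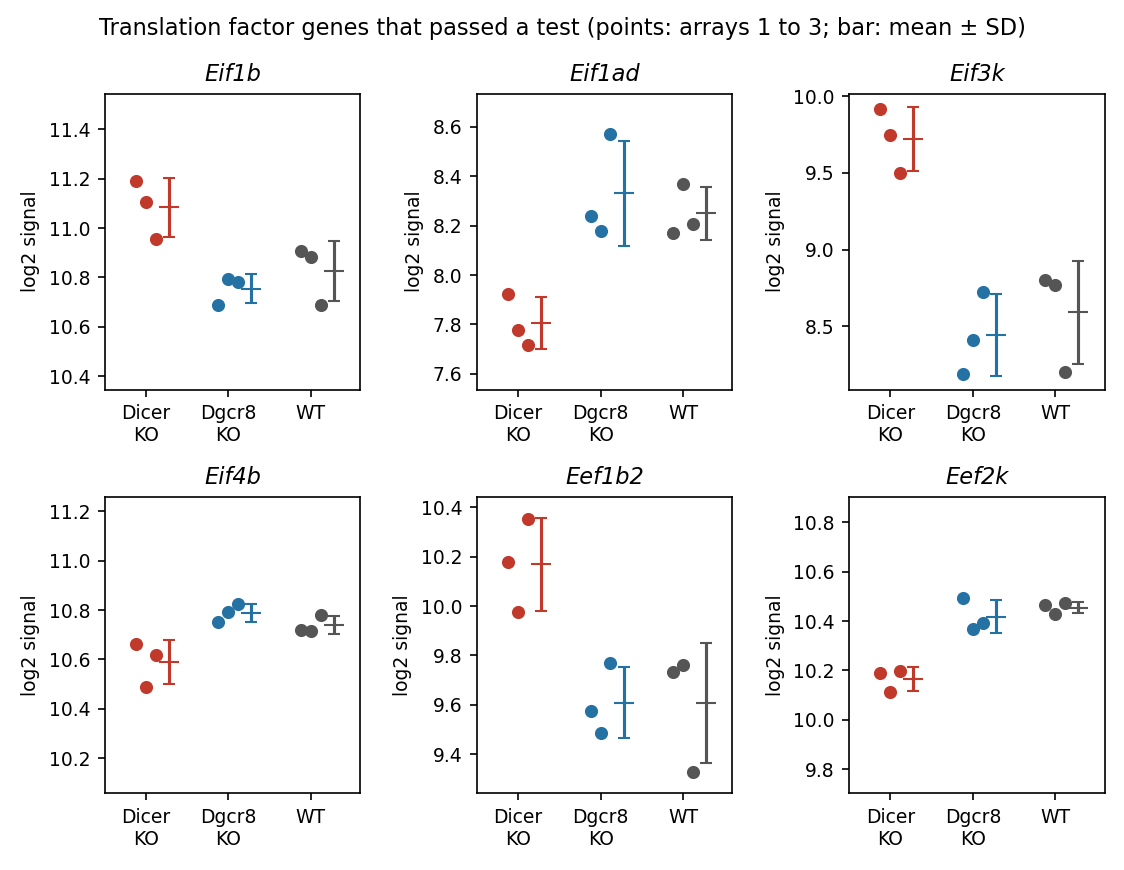
Log2 signal of the 6 translation factor genes called in any comparison, 1 panel per gene, with a point for each array and a bar for the mean and SD (n = 3) of Dicer knockout (left), Dgcr8 knockout (middle) and wild-type (right). Dicer knockout arrays lie apart from all 6 others in each panel, above for Eif3k, Eef1b2 and Eif1b and below for Eef2k, Eif1ad and Eif4b.

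Dgcr8 knockout was compared with wild-type to ask the same of oocytes that lack canonical microRNAs. No translation factor gene passed: 0 of 54, beside 0.0231% (4 genes) of all genes tested. At an unadjusted limma p under 0.05, 1 of 54 genes (1.85%) passed, beside 2.64% of all genes. The interval lay within 0.5 of 0 for 52 of 54 genes (96.3%), beside 87.6% of all genes. Members and all genes differ in median signal, as given above. The changes had a median of -0.01 and ran from -0.42 for Eef1akmt1 (interval -1.09 to 0.24) to 0.16 for Eif5a.

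Eif5a was the 1 gene at an unadjusted p under 0.05. It had 10.85, 10.70 and 10.84 in Dgcr8 knockout arrays and 10.61, 10.67 and 10.64 in wild-type arrays, without overlap, and a change of 0.16 (interval 0.03 to 0.28; limma adjusted p = 1). A second Eif5a probe set changed by -0.04 in Dgcr8 knockout (interval -0.21 to 0.13), and the mean of both by 0.06. Eif1a was the other of the 2 genes (3.70%, beside 6.54% of all genes) whose arrays did not overlap, by -0.23 (interval -0.48 to 0.03). The genes called in Dicer knockout changed in Dgcr8 knockout by -0.15 for Eif3k (interval -0.56 to 0.26), 0.00 for Eef1b2 (interval -0.29 to 0.30), -0.04 for Eef2k (interval -0.15 to 0.08) and 0.08 for Eif1ad (interval -0.18 to 0.34), each with an adjusted p of 1. Both knockouts were set against the same 3 wild-type arrays. Of the genes that bind or regulate the cap factor, Eif4e1b changed by 0.02 (interval -0.05 to 0.09), Eif4e by 0.06 (interval -0.08 to 0.20) and Eif4enif1 by 0.01 (interval -0.08 to 0.11).

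The direct comparison of Dicer knockout with Dgcr8 knockout tests whether the knockouts differ. It called 6 of 54 genes (11.1%), beside 13.4% of all genes. Eef1b2, Eif1b and Eif3k were higher in Dicer knockout, 5.56% of the set beside 5.48% of all genes, and Eef2k, Eif1ad and Eif4b were lower, 5.56% beside 7.92%. The arrays of 15 genes (27.8%) did not overlap, beside 26.1% of all genes. In this fit, each share was near that of all genes or below it. With quantile normalization, 13 genes were called, 3 higher and 10 lower, and median centring gave 2 higher and 2 lower. The share of all genes called under these 2 settings is not given here. With quantile normalization the median difference was -0.03 over the members and -0.04 over all genes.

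The differences between the knockouts were 1.28 ± 0.18 (SE) for Eif3k, or 2.42-fold (adjusted p = 0.00157), and 0.56 for Eef1b2 (adjusted p = 0.0204). Eef2k differed by -0.25 (adjusted p = 0.00929) and Eif1ad by -0.53 (adjusted p = 0.0156). Eif3k and Eif1ad were called under all 19 alternatives in this comparison. Eef1b2 lost its call without Dicer knockout replicate 1 (adjusted p = 0.0628) or 3 (0.0663), or without Dgcr8 knockout replicate 1 (0.0677) or 2 (0.0778). Eef2k lost its call with the mean of its 2 probe sets (adjusted p = 0.888).

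Eif1b averaged 11.08 ± 0.12 in Dicer knockout and 10.75 ± 0.06 in Dgcr8 knockout oocytes (SD, n = 3 arrays each), a difference of 0.33 or 1.26-fold in limma (adjusted p = 0.016). Its call was lost without Dicer knockout replicate 1 (adjusted p = 0.0599), without Dgcr8 knockout replicate 1 (0.0637) and with median centring (0.052). Eif4b had 10.66, 10.49 and 10.62 in Dicer knockout arrays and 10.75, 10.79 and 10.82 in Dgcr8 knockout arrays, a difference of -0.20 or a fold of 0.87 (adjusted p = 0.0307). It was close to the threshold and lost its call in 9 of 19 alternatives, among them those without Dicer knockout replicate 2 (adjusted p = 0.0637), without Dgcr8 knockout replicate 1 (0.0571), 2 (0.0815) or 3 (0.095), and without wild-type replicate 1 (0.0511) or 2 (0.0507). Without Dgcr8 knockout replicate 1, Eif1b, Eif4b and Eef1b2 lost their calls, and Eif3k, Eif1ad and Eef2k kept theirs. Eif5a differed by -0.18 (interval -0.30 to -0.05, adjusted p = 0.0671), and passed without Dgcr8 knockout replicate 2 (0.0361). Eif4a2, with a difference of -0.22 (adjusted p = 0.0639), passed without Dicer knockout replicate 3 (0.0115). Eif2s3x, at -0.19 (adjusted p = 0.17), passed without Dgcr8 knockout replicate 2 (0.0202), and Eif5, at -0.11 (adjusted p = 0.159), without Dicer knockout replicate 1 (0.0437). With quantile normalization Eif4a2 (adjusted p = 0.0292), Eif4e3 (0.0288), Eif4enif1 (0.0385), Eif5 (0.0142), Eif5a (0.0213) and Eif5b (0.0103) also passed.

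The translation factors work with other proteins, given here as 4 lists with 60 tested genes. In Dicer knockout against wild-type oocytes 5 of the 60 rose and 3 fell (13.3%, beside 11.3% of all genes), with a median change of -0.05. None passed in Dgcr8 knockout against wild-type, by the adjusted p or by an unadjusted p under 0.05. Dicer knockout against Dgcr8 knockout gave 5 higher (8.33%, beside 5.48% of all genes) and 7 lower (11.7%, beside 7.92%). Of the 12, 8 were also called against wild-type and are described below, although Rheb kept its call between the knockouts in 4 of 19 alternatives. The other 4, named after their values were seen, were lower in Dicer knockout than in Dgcr8 knockout and not called against wild-type. Pelo, a ribosome rescue factor, differed by -0.60 (adjusted p = 0.0271) and Mrrf, the mitochondrial ribosome recycling factor, by -0.46 (0.0307). Eif2ak2, the eIF2 kinase PKR, differed by -0.53 (adjusted p = 0.0439) and Gspt1, the release factor eRF3a, by -0.20 (0.0437). Eif2ak2 lay near the floor of 4. It had 3.98, 4.15 and 4.45 in Dicer knockout and 4.94, 4.82 and 4.42 in Dgcr8 knockout arrays, which overlapped. Pelo and Mrrf each kept the call in 13 of 19 alternatives, Eif2ak2 in 6 of 18 and Gspt1 in 5 of 19.

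Of 16 termination, recycling and cap-to-tail factors, 1 rose and 2 fell in Dicer knockout against wild-type oocytes (18.8% called, beside 11.3% of all genes). Pabpc1, the poly(A)-binding protein of somatic cells, had 9.17, 9.45 and 8.87 in Dicer knockout arrays, 8.18, 8.37 and 8.36 in Dgcr8 knockout arrays, and 8.11 ± 0.17 (SD, n = 3) in wild-type arrays, the highest at 8.30. Its lowest Dicer knockout array lay above all 6 others, and it rose by 1.06 ± 0.14 (SE), or 2.08-fold (adjusted p = 0.0012). Dhx29, a helicase that helps the small subunit through structured leaders, had 8.98, 9.15 and 9.09 in Dicer knockout arrays, 9.74, 9.57 and 9.58 in Dgcr8 knockout arrays, and 9.56, 9.50 and 9.73 in wild-type arrays. It fell by 0.52, a fold of 0.697 (adjusted p = 0.00257). Paip2b, which pulls poly(A)-binding protein off its partners, had 11.33, 11.37 and 11.32 in Dicer knockout arrays, 11.51, 11.51 and 11.57 in Dgcr8 knockout arrays, and 11.51, 11.55 and 11.63 in wild-type arrays. It fell by 0.22 (adjusted p = 0.00531), and its Dicer knockout arrays were the lowest of the 9.

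Of 24 genes of translational control signalling, 2 rose and none fell in Dicer knockout against wild-type oocytes (8.33% called, beside 11.3% of all genes). Atf4, a transcription factor whose own mRNA is translated when eIF2 is phosphorylated, had 10.33, 10.22 and 10.05 in Dicer knockout arrays, 9.65, 9.78 and 9.91 in Dgcr8 knockout arrays, and 9.79, 9.73 and 9.85 in wild-type arrays. Its Dicer knockout arrays lay above the others, and it rose by 0.41 (adjusted p = 0.0135). The change was 0.34 without Dicer knockout replicate 1 (adjusted p = 0.0519) and 0.38 without wild-type replicate 2 (0.057), both short of the threshold. Rheb, the GTPase that switches on mTORC1, had 10.66, 10.64 and 10.76 in Dicer knockout arrays, 10.38, 10.30 and 10.60 in Dgcr8 knockout arrays, and 10.46, 10.43 and 10.34 in wild-type arrays. It rose by 0.27 (adjusted p = 0.0417), a call lost in 12 of 19 alternatives, with adjusted p of up to 0.149 without wild-type replicate 3. The kinases that phosphorylate eIF2 were not called against wild-type: Eif2ak1 changed by -0.04, Eif2ak2 by -0.29, Eif2ak3 by 0.32 and Eif2ak4 by -0.09. Eif4ebp1, the eIF4E-binding target of mTORC1, changed by 0.10.

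Of 10 mitochondrial translation factors, 1 rose and none fell in Dicer knockout against wild-type oocytes, near the 11.3% called of all genes. Mtif2, the mitochondrial initiation factor that brings in the initiator tRNA, had 9.72, 9.35 and 9.63 in Dicer knockout arrays, 8.20, 7.99 and 8.42 in Dgcr8 knockout arrays, and 8.28, 8.05 and 8.16 in wild-type arrays. It rose by 1.40 ± 0.13 (SE), or 2.64-fold (adjusted p = 0.000108), the largest change of the 4 lists. Of 10 genes for enzymes that modify translation factors or serve selenoprotein elongation, 1 rose and 1 fell (2 of 10 called, beside the same 11.3%), and both act in making diphthamide, the modified histidine of eEF2. Dph7 had 8.17, 7.87 and 7.96 in Dicer knockout arrays, 7.18, 7.13 and 7.19 in Dgcr8 knockout arrays, and 7.23, 7.37 and 7.36 in wild-type arrays, and rose by 0.68 or 1.60-fold (adjusted p = 0.00173). Dph3 had 9.19, 9.06 and 9.10 in Dicer knockout arrays, 9.40, 9.55 and 9.44 in Dgcr8 knockout arrays, and 9.47, 9.49 and 9.49 in wild-type arrays, and fell by 0.37, a fold of 0.774 (adjusted p = 0.00497). For Mtif2, Dph7 and Dph3 the Dicer knockout arrays lay apart from all 6 others.

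**Figure D4:**
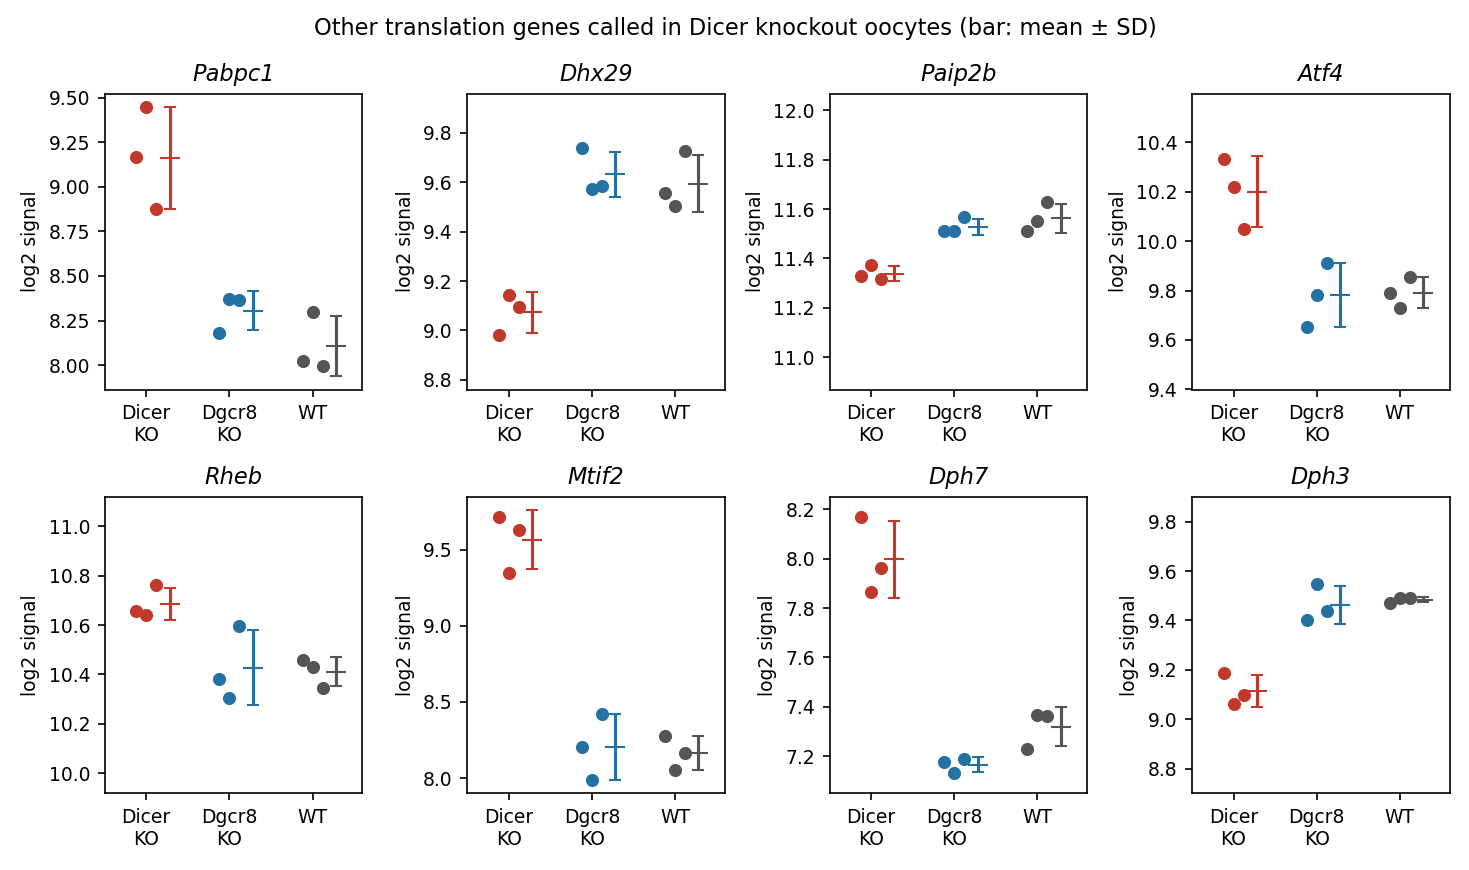
Log2 signal of the 8 genes of the other 4 translation lists called in Dicer knockout against wild-type oocytes, 1 panel per gene, with a point for each array and a bar for the mean and SD (n = 3) of Dicer knockout (left), Dgcr8 knockout (middle) and wild-type (right). Pabpc1, Atf4, Rheb, Mtif2 and Dph7 are higher in Dicer knockout than in wild-type, and Dhx29, Paip2b and Dph3 are lower.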

How the data were processed

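The deposited values are log2 signals, 1 per probe set and array, which the authors made with GCRMA per the submitters' processing notes; its version and settings and the array's genome build are not given in the sources. GCRMA corrects background by probe sequence and normalizes between arrays, so a change shared by all transcripts would not show. Of 35557 probe sets, the platform annotation gives 1 gene for 21789, several for 1621 and none used here for 12147. For a gene with several probe sets, the one with the highest mean was used, and genes with a log2 signal of at least 4 in at least 3 arrays were tested. Some members have processed copies in the genome, and whether probes also match these was not tested. Groups followed the genotype labels. Differences were tested two-sided with limma 3.58.1 under R 4.3.3, as lmFit on all 9 arrays without covariates and eBayes with its trend and robust options, with Benjamini-Hochberg adjustment over all 17324 genes. The number of arrays limits precision: the median half-width of a member's 95% interval was 0.20.

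Alternatives were other floors, quantile normalization, median centring, averaging the probe sets of a gene, all probe sets, plain eBayes, a fit of 2 groups, array weights, a replicate block and leaving out each array. Replicate numbers were not taken as pairs. The genes given by name are those called in any comparison, the 5 with the highest mean signal, core factors listed by name, the 5 uncalled genes with the largest change in Dicer knockout, the targeted genes up to 4 genes of each further list called in Dicer knockout against wild-type and, added later, those called between the knockouts alone; other members stand in their role's range. The member genes and all lists were chosen with earlier results of these data known.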

Additional observations from a re-analysis of the deposited data

Results flagged for a closer look

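Probe sets that name several genes were left out of the comparisons, and 11 of them name a translation factor gene among others. Of these, 4 share the same 8 names, Eif1a and 7 predicted or unnamed genes (Gm21319, Gm4027, Gm2022, Gm8300, BB287469, Gm5662 and Gm5039), and all 4 rose in Dicer knockout against wild-type oocytes in a limma fit of all 27257 probe sets above the floor, in which 9.09% were called. Probe set 10397541 had 6.93, 6.95 and 7.31 in Dicer knockout arrays, 6.26, 5.79 and 6.02 in Dgcr8 knockout arrays, and 6.24, 5.57 and 5.62 in wild-type arrays, a log2 change of 1.25 (adjusted p = 0.0056). The other changes were 1.13 for probe set 10397543 (adjusted p = 0.00561), 0.83 for 10401822 (0.01) and 1.16 for 10401829 (0.00616). In each the lowest Dicer knockout array lay above the highest of the 6 others. In Dgcr8 knockout against wild-type the 4 changed by 0.11 to 0.21 (adjusted p = 1 for each). Since they share their names they are not 4 separate results, and which of the 8 genes they read was not tested. The probe set that names Eif1a alone changed by 0.05 in Dicer knockout against wild-type (interval -0.21 to 0.30).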

How the results depend on the processing

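In Dicer knockout against wild-type, 17 of 19 alternatives gave a count of called members within 1.5 times the 4 reported, and in Dicer knockout against Dgcr8 knockout 17 of 19 gave one within 1.5 times the 6 reported; Dgcr8 knockout against wild-type gave 0 in all 19. Quantile normalization gave 9 and 13 called members in the first 2 of these, and the cause was not tested. Leaving out each array in turn gave 2 to 5 for Dicer knockout against wild-type (2 without wild-type replicate 3), 3 to 6 for Dicer knockout against Dgcr8 knockout (3 without Dgcr8 knockout replicate 1), and 0 to 0 for Dgcr8 knockout against wild-type. Over 141 gene results and 2667 recomputed values, 98 calls were lost, 31 were gained and none of the called ones changed sign. Samples of the same replicate number correlated between -0.24 and 0.11 in their deviations from the group means, over 0.1 in 1 of 9 pairs. Samples of different numbers correlated between -0.16 and 0.25. The numbers were not taken as pairs, although 3 arrays per group cannot exclude pairing. With the replicate block, 4, 0 and 6 members were called in Dicer knockout against wild-type, Dgcr8 knockout against wild-type and Dicer knockout against Dgcr8 knockout. In the first of these Eif1ad lost its call under the block (adjusted p = 0.0722) and Eif1b gained one (adjusted p = 0.0474). Apart from the floor of 6, member counts under an alternative, here and above, stand without the share of all genes called under it. They therefore do not tell a shift of the members from a shift of all genes. Signals near the floor limit what can be seen for the methyltransferase genes.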

Other observations

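The 8 members with more than 1 probe set had 10 further ones, and none of these was called in Dicer knockout against wild-type or against Dgcr8 knockout oocytes. Eif2s2 changed by -0.16 in its further probe set (adjusted p = 0.164 over all probe sets in limma) and by 0.10 in the one used. Eif3m, an eIF3 subunit, changed by 0.21 in its further probe set and by 0.12 in the one used. The 2 further probe sets of Eif4e changed by 0.10 and -0.02, and those of Eif4a1 by 0.05 and 0.04. The further probe set of Eif5a changed by -0.08.

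The other tested probe sets that name several genes gave no call. The one that names Eif5 with Snora28 did not pass the floor and was not tested. The 2 that name Eif4a3 with Eif4a3l1 changed by 0.27 and 0.26 in Dicer knockout against wild-type (adjusted p = 0.128 and 0.171), beside 0.21 for the probe set of Eif4a3 alone. The 2 that name Eif3j1 with Eif3j2, the genes of a loosely attached eIF3 subunit, changed by -0.02 and -0.05. The probe set that names Eef1a1 with 2 other genes changed by 0.09, and that of Ankhd1 with Eif4ebp3 by 0.01.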
